A study of Mus musculus with 18 samples.

Results

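Glycerol handling and glyceroneogenesis in fat were examined through 9 genes, chosen by name: the aquaporins Aqp7, Aqp3 and Aqp1, the glycerol kinase gene (Gyk in the files), the phosphoenolpyruvate carboxykinases Pck1 and Pck2, the glycerol 3-phosphate dehydrogenases Gpd1 and Gpd2, and pyruvate carboxylase, Pcx. All 9 symbols were present in the files of every library, among 45151 symbols found for all depots, and 8 of the 9 had enough reads to be tested. RNA-seq had been performed on 18 libraries from wild-type male C57BL/6J mice aged 16 weeks and fed regular chow: 6 of inguinal white adipocytes (iWAT), 6 of epididymal white adipocytes (eWAT) and 6 of brown adipose tissue (BAT). The white adipocytes were floating cells recovered after collagenase digestion of the fat pads, whereas whole BAT was used, so that depot and preparation cannot be told apart wherever BAT is compared. No transgene or drug was involved in any of these groups, and the number in each sample title was read as that of the mouse.

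A fat cell that breaks down triglyceride releases fatty acids and glycerol. Glycerol leaves through an aquaglyceroporin, a membrane channel that passes both water and glycerol, or is phosphorylated again by glycerol kinase, an enzyme that white fat is known for having little of. The glycerol 3-phosphate needed to rebuild triglyceride then comes from glucose, or from pyruvate by way of oxaloacetate, phosphoenolpyruvate and dihydroxyacetone phosphate, a route called glyceroneogenesis.

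Values are given as RPKM, the read count scaled to the row's length in kilobases and to the library's total of reads. The totals of reads behind them were 22929576 to 32141048 in iWAT, 26607733 to 34048018 in eWAT and 26706786 to 34512470 in BAT. A row of the iWAT and BAT files is a gene with its exons merged, whereas a row of the eWAT files is a single transcript, for which the one with the most reads was taken. The merged row was longer than that transcript by a factor of 2.1 for Pck2, 1.80 for Gpd2, 1.75 for Gyk and 1.36 for Pck1, and had the same length for Aqp1. Counting and depot cannot be told apart for eWAT, and the eWAT fold changes of the 9 genes are therefore also given for reads without row lengths. The depot labels were checked with marker genes. The summed RPKM of 5 brown adipocyte genes was 2714 to 3389 in BAT, at most 121 in iWAT and at most 24.5 in eWAT. That of 5 adipocyte genes was 3330 to 5074 in iWAT, 2903 to 6535 in eWAT and 725 to 951 in BAT. The eWAT library of mouse 15 stood apart, with a summed RPKM of 6 macrophage markers of 1842 against 125 to 437 in the other 5 eWAT libraries. This sum was lower in the other depots, at 22.8 to 125 in iWAT (median 33.5) and 20.3 to 48.5 in BAT (median 25.9). The summed RPKM of 5 epididymis markers was 76.2 in the eWAT library of mouse 14 and 71.0 in that of mouse 15, at most 3.64 in the other 4 eWAT libraries, 0 in every iWAT library and at most 0.00864 in BAT. The BAT library of mouse 12 had a summed RPKM of 5 skeletal muscle genes of 1340.1, and was neither the lowest nor the highest BAT library for any of the 8 tested genes.

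The steps differed widely in their transcript level. By mean RPKM, Pck1 ranked 39th in iWAT, 56th in eWAT and 33rd in BAT among the 45151 symbols, and Gpd1 ranked 72nd, 136th and 15th. Pcx and Aqp1 were between rank 195 and rank 361 in every depot. Gyk was far lower in white fat, at rank 10781 in iWAT and 10067 in eWAT, than in BAT, at rank 1956. Pck2 was low in every depot, at rank 11459 in iWAT, 9037 in eWAT and 11869 in BAT. Aqp3 was close to absent, with 8 reads over all 18 libraries.

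**Figure D1:**
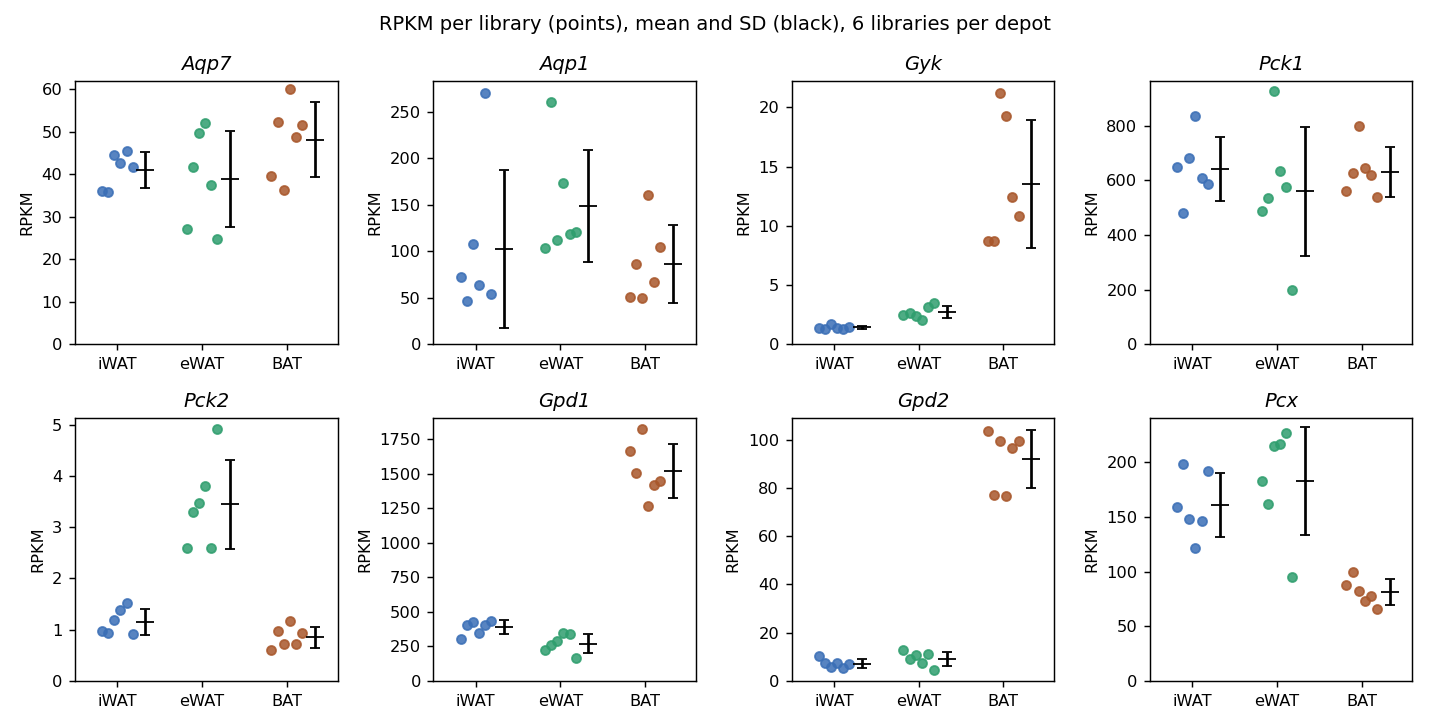
RPKM of the 8 tested genes in each library (points, 6 per depot), with the mean and SD in black. Gpd1, Gpd2 and Gyk were higher in every BAT library than in any white adipocyte library, whereas the Pck1 ranges of the depots overlapped. Ranges did not overlap for 47.2% of 18383 genes between iWAT and BAT and for 61.9% between eWAT and BAT.

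Of the 8 genes tested between iWAT and BAT, 5 passed the threshold (edgeR quasi-likelihood test, Benjamini-Hochberg adjusted p under 0.05), with Gpd2, Gyk, Gpd1 and Aqp7 lower and Pcx higher in iWAT. This share is read against the background of all 19733 genes tested, of which 67.6% passed (34.0% higher, 33.6% lower in iWAT), a share close to that of the 8 genes. Without scaling between libraries by TMM, the median of all genes moved by 0.26 on the log2 scale between iWAT and BAT, by 0.73 between eWAT and BAT and by 0.44 between eWAT and iWAT. All fold changes below are relative to that scaling, under which 50.3% of the calls between iWAT and BAT were higher in iWAT, against 65.8% without it. The shares of calls higher in eWAT moved further without it, from 54.0% to 78.8% against BAT and from 53.9% to 90.2% against iWAT. The median log2 fold change of the 8 genes was -0.37, beside 0.01 for all genes. Between eWAT and BAT, 7 of 8 genes passed, 2 higher and 5 lower in eWAT, against 73.9% of 18383 genes (39.9% higher, 34.0% lower). Between eWAT and iWAT, 4 of 8 passed, 1 higher and 3 lower in eWAT, against 52.5% of the 18383 genes (28.3% higher, 24.2% lower). For reads without row lengths 7 of 8 passed between eWAT and BAT, against 70.3% of all genes (35.6% higher, 34.7% lower), and 3 of 8 between eWAT and iWAT, against 25.6% (12.3% higher, 13.4% lower). The comparisons share their depots' libraries and are not independent of each other.

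**Figure D2:**
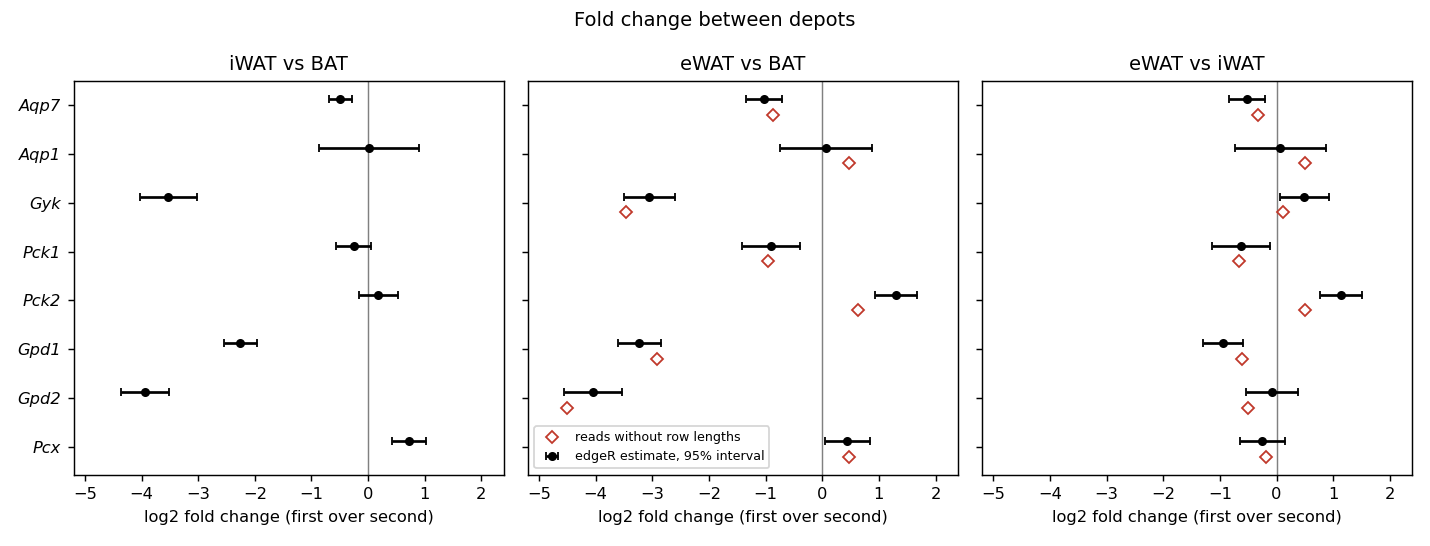
Log2 fold change of each gene between depots, with its 95% interval from the edgeR fit (black), and the same estimate for reads without row lengths (red diamonds, eWAT comparisons only). Gpd2, Gyk and Gpd1 were the genes farthest from 0 in both comparisons with BAT.

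Aqp7 encodes the aquaglyceroporin through which adipocytes release glycerol. Its row lies on the minus strand of chromosome 4 (mm9, 40980107 to 40995172, 11 merged exons). The RPKM of Aqp7 ranged from 35.9 to 45.4 in iWAT (median 42.1), from 24.7 to 52.0 in eWAT (median 39.6) and from 36.3 to 60.1 in BAT (median 50.2), so that the depots overlapped. With means of 41.0 ± 4.15, 38.8 ± 11.3 and 48.1 ± 8.78 (SD, n = 6 each), the mean RPKM of Aqp7 differed by at most a factor of 1.24 between depots. The edgeR estimate was lower in iWAT than in BAT by a log2 fold change of -0.49 (SE 0.10, adjusted p = 0.000434) and lower in eWAT than in BAT by -1.03 (SE 0.15, adjusted p = 5.72e-06). Both calls were lost when libraries were not scaled by TMM, with log2 fold changes of -0.23 (edgeR adjusted p = 0.0998) and -0.31 (edgeR adjusted p = 0.0981). For reads without row lengths the difference between eWAT and BAT was -0.86 (edgeR adjusted p = 3.78e-05). The smaller difference between eWAT and iWAT (-0.52, edgeR adjusted p = 0.00728) was lost without row lengths (-0.33, edgeR adjusted p = 0.108) and without TMM scaling (-0.08, edgeR adjusted p = 0.727). Within BAT, Aqp7 was highest in the library of mouse 11, which also had the highest summed RPKM of 8 endothelial markers. On the log2 scale Pearson's r of Aqp7 with that sum was 0.96 in BAT, 0.73 in iWAT and 0.56 in eWAT, and with the sum of 5 adipocyte markers -0.36, 0.87 and 0.86 (6 libraries each, a description within the same libraries). In an unplanned alternative without the iWAT library of mouse 14 and the BAT library of mouse 11, the difference between iWAT and BAT was -0.49 (edgeR adjusted p = 0.000479). The part of endothelial RNA in the Aqp7 levels was not tested, and leaving out a library of each depot cannot test it.

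Aqp3, a water and glycerol channel of epithelia, lies 44582 bases from Aqp7 on the same strand (chromosome 4, mm9, 41039755 to 41045216). It had 1 read in the 6 iWAT libraries together, 4 in eWAT and 3 in BAT, and no library had more than 2. The summed RPKM of 5 epithelium markers was at most 0.0378 in iWAT, 0.0595 in BAT and 6.01 in eWAT. A count of 3 reads, taken as the limit for a count of 0, corresponds to an RPKM of 0.0475 to 0.0715 in these libraries. This limit covers counting error only, and it is higher for the 6 libraries that had 1 or 2 reads. Aqp3 transcripts were thus at or near the limit of detection in every depot. Fold changes of Aqp3 are therefore not given, and no ratio to Aqp7 was calculated.

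Aqp1, a water channel of capillary endothelium and red cells, had the widest relative spread of the 8 genes in iWAT and BAT, and in eWAT the widest after Pck1 (chromosome 6, mm9, 55286293 to 55298549, plus strand, 4 exons). Its RPKM was 47.0 to 270.3 in iWAT (median 67.8), 103 to 260.3 in eWAT (median 120.0) and 49.9 to 160.5 in BAT (median 76.1). A single library was far above the others in iWAT, that of mouse 14, where the other 5 had an RPKM of at most 108. No difference between depots passed, with an edgeR log2 fold change between iWAT and BAT of 0.01 (95% interval -0.87 to 0.89) and between eWAT and BAT of 0.07 (95% interval -0.74 to 0.87). Between eWAT and iWAT it was 0.07 as well, and reads without row lengths gave 0.47 (edgeR adjusted p = 0.285) against BAT and 0.50 (edgeR adjusted p = 0.372) against iWAT. As the Aqp1 row has the same length in both kinds of file, this gap comes through the scaling, which the lengths of other rows enter. That scaling is part of every eWAT fold change. Rows of identical length alone gave 0.58 (edgeR adjusted p = 0.187) against BAT and 0.45 (edgeR adjusted p = 0.497) against iWAT. Without the iWAT library of mouse 14 the difference between iWAT and BAT became -0.57 (edgeR adjusted p = 0.0803) and that between eWAT and iWAT 0.66 (edgeR adjusted p = 0.0549). With the BAT library of mouse 11 left out too, the former was -0.36 (edgeR adjusted p = 0.186), and with the mouse as a block it was -0.72 (edgeR adjusted p = 0.103). Aqp1 moved with the endothelial markers Pecam1, Cdh5, Kdr, Tek, Tie1, Emcn, Egfl7 and Esam, all 8 of which were detected in every library. Their summed RPKM was 33.8 to 190.5 in iWAT, 109 to 280.2 in eWAT and 60.7 to 121 in BAT, and in each depot the library with the highest sum was also the one with the highest Aqp1 (mouse 14, mouse 8 and mouse 11). On the log2 scale Pearson's r between Aqp1 and this sum was 0.98 in eWAT and 0.99 in both iWAT and BAT (6 libraries each, a description, as both come from the same library). The RPKM of Aqp1 divided by that sum stayed between 0.780 and 1.42 over all libraries, while Aqp1 itself varied from 47.0 to 270.3. Red cell RNA was present as well, with a summed RPKM of 5 erythroid genes of 66.2 to 476 in iWAT, 161 to 1109 in eWAT and 405 to 1178 in BAT. The part of endothelial or red cell RNA in the Aqp1 levels was not tested, and in these bulk samples fewer cells of a type and less RNA per cell cannot be told apart.

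**Figure D3:**
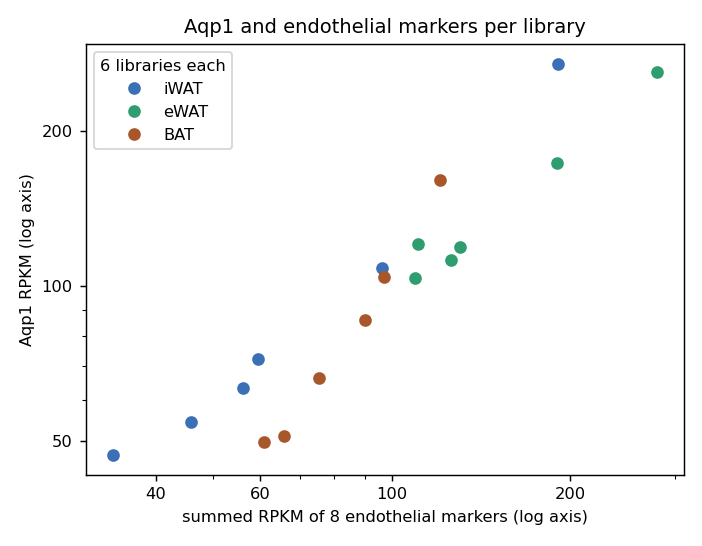
RPKM of Aqp1 against the summed RPKM of 8 endothelial markers in each library, on log axes, coloured by depot. Libraries with a higher endothelial sum had a higher Aqp1 level within iWAT, eWAT and BAT alike, up to the iWAT library of mouse 14 at 270.3.

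Glycerol kinase transcripts separated brown from white fat. Gyk lies on the minus strand of the X chromosome (mm9, 82947276 to 83022158, 22 merged exons). Its RPKM was 1.24 to 1.68 in iWAT (median 1.40), 2.08 to 3.45 in eWAT (median 2.54) and 8.74 to 21.2 in BAT (median 11.6). Every BAT library was above every white adipocyte library, as held for 47.2% of 18383 genes between iWAT and BAT in one direction or the other and for 61.9% between eWAT and BAT (51.5% for reads scaled to the library's total alone). Within BAT the libraries of mouse 8 (21.2) and mouse 11 (19.2) were well above the other 4, which had an RPKM of at most 12.4. Mean RPKM was 9.55-fold lower in iWAT than in BAT, and the edgeR log2 fold change was -3.52 (SE 0.23, adjusted p = 1.05e-08). For eWAT against BAT it was -3.06 (SE 0.22, edgeR adjusted p = 2.91e-10), and -3.47 for reads without row lengths (edgeR adjusted p = 1.01e-10). The RPKM ranges of Gyk in iWAT and eWAT did not overlap, as for 32.4% of genes, but the ranges of RPM, the read count scaled to the library's total without row length, did overlap (they did not for 10.5% of genes), with means of 10.99 ± 1.17 and 11.9 ± 2.26 (SD, n = 6 each) beside 104.9 ± 41.9 in BAT. The difference between eWAT and iWAT missed the threshold (log2 fold change 0.49, edgeR adjusted p = 0.0512), passed with the mouse as a block (0.48, edgeR adjusted p = 0.0438) and was 0.11 for reads without row lengths (edgeR adjusted p = 0.744). Without TMM scaling it passed at 0.92 (edgeR adjusted p = 0.000852). A same-strand row within the Gyk span, E130114A11Rik, had 33 reads in iWAT and 1437 in BAT, where Gyk had 1794 and 19092. Whether it shares exonic bases with Gyk was not tested.

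Of the genes related to Gyk, Gk2, an intronless relative of it, had a mean RPKM of 0.0977 ± 0.0499 in iWAT and 0.746 ± 0.527 in BAT (SD, n = 6 each). At so low a level in iWAT it may have had enough reads through its BAT libraries alone, so that its test is not given. Reads shared between Gk2 and Gyk were not tested, so that the Gk2 values are uncertain. Gk5, another glycerol kinase relative, went the other way, with a log2 fold change of 0.60 (edgeR adjusted p = 0.0345). Pgp, the phosphatase that turns glycerol 3-phosphate back into glycerol, had the highest mean RPKM of this list over all 18 libraries and was lower in iWAT by -1.27 (edgeR adjusted p = 1.54e-07). Gpd1l, a relative of Gpd1, had a mean RPKM above that of Pgp in both white depots (9.95 against 8.42 in iWAT, 11.01 against 8.89 in eWAT) and was higher in iWAT than in BAT by 0.46 (edgeR adjusted p = 6.3e-05). With Gk2 left aside, Gk5 and Gpd1l were called higher and Pgp lower in iWAT, beside 34.0% and 33.6% of all genes.

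Pck1, the cytosolic carboxykinase that commits oxaloacetate to glyceroneogenesis, was the highest of the 9 genes in both white depots. Its row lies on the plus strand of chromosome 2 (mm9, 172978549 to 172984774, 7 merged exons). The RPKM of Pck1 was 480.4 to 836 in iWAT (median 629), 199 to 928 in eWAT (median 557) and 539 to 799 in BAT (median 623). The iWAT and BAT libraries covered almost the same range, with means of 641 ± 118 and 632 ± 91.6 (SD, n = 6 each) and a log2 fold change of -0.25 (95% interval -0.56 to 0.06, edgeR adjusted p = 0.135). Without the iWAT library of mouse 13 this passed (-0.34, edgeR adjusted p = 0.0415), and without TMM scaling the sign turned (0.02). In eWAT Pck1 was lower than in BAT by a log2 fold change of -0.91 (SE 0.24, edgeR adjusted p = 0.00254), and reads without row lengths gave -0.96 (edgeR adjusted p = 0.00149). That call, too, was lost without TMM scaling (-0.17, edgeR adjusted p = 0.511). The difference from iWAT (-0.63, edgeR adjusted p = 0.0366, or -0.66 without row lengths, adjusted p = 0.0483) was lost with the mouse as a block (-0.78, edgeR adjusted p = 0.0997) and without any one of 4 libraries, those of mouse 7 and mouse 8 in eWAT and of mouse 7 and mouse 13 in iWAT. This call from iWAT was also lost without TMM scaling (-0.19, edgeR adjusted p = 0.53) and without a filter on low counts (-0.60, edgeR adjusted p = 0.0756). Tested against 1.5-fold it did not pass either (edgeR adjusted p = 0.55).

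As cyclic AMP is known to drive Pck1 transcription through a response element close to the start, the sequence upstream of the Pck1 and Aqp7 starts is shown, with the matches to any of the searched motifs in capitals. The sequences are from the mm9 genome, 5′ to 3′ on the strand of the gene, and leave out bases inside the gene's own row. In Pck1 (chr2:172978324-172978548, plus strand) the capitals mark TTACGTCA, which lies 93 to 86 bases before the RefSeq start and contains TGACG on the opposite strand. In Aqp7 (chr4:40995173-40995419, minus strand) they mark TGACCT, the reverse complement of AGGTCA, the core of nuclear receptor sites.
Pck1: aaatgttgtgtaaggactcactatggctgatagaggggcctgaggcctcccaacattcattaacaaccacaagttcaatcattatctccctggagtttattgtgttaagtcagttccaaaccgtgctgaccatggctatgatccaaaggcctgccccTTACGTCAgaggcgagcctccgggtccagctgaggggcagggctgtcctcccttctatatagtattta
Aqp7: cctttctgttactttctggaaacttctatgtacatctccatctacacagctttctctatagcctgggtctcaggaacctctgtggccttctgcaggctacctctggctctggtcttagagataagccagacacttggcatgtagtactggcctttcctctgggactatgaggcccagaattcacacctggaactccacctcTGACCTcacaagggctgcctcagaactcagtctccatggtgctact
Over the 250 bases before each of 20325 RefSeq starts, searched on both strands, TTACGTCA was found in 0.585%, TGACG in 21.3%, CCAAT in 35.5% and AGGTCA in 11.8%. Of the 9 genes, TTACGTCA and TGACG were found in 1 (Pck1), CCAAT in 1 (Pck2) and AGGTCA in 1 (Aqp7). These are matches of letters and not measured sites.

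Pck2, the mitochondrial carboxykinase, was the lowest of the tested genes in iWAT and BAT (chromosome 14, mm9, 56159103 to 56169610, plus strand). Its RPKM was 0.911 to 1.51 in iWAT (median 1.07), 2.59 to 4.92 in eWAT (median 3.38) and 0.593 to 1.17 in BAT (median 0.827). The eWAT libraries were all above those of the other depots. RPKM ranges did not overlap for 61.9% of 18383 genes between eWAT and BAT and for 32.4% between eWAT and iWAT. As the eWAT row is shorter, RPM values are given too, with means of 11.7 ± 2.95 in eWAT, 8.18 ± 1.79 in iWAT and 6.06 ± 1.496 in BAT (SD, n = 6 each), with overlap between eWAT and iWAT. Which scale is the closer comparison was not tested. Pck2 was higher in eWAT than in BAT by a log2 fold change of 1.30 (SE 0.18, edgeR adjusted p = 2.29e-06) and than in iWAT by 1.15 (SE 0.18, edgeR adjusted p = 2.98e-05). Without row lengths both calls held, at 0.64 (edgeR adjusted p = 0.0037) and 0.50 (edgeR adjusted p = 0.0423). The difference between iWAT and BAT (0.18, edgeR adjusted p = 0.328) did not pass, whereas it passed without TMM scaling (0.43, edgeR adjusted p = 0.0423). On the log2 scale Pearson's r of Pck2 with the macrophage sum was 0.88 in eWAT, 0.80 in BAT and -0.37 in iWAT (6 libraries each). With the endothelial sum it was 0.03 in eWAT, 0.93 in BAT and 0.78 in iWAT. With the erythroid sum it was -0.46, 0.87 and 0.44. The part of macrophage, endothelial or red cell RNA in the Pck2 levels was not tested.

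Gpd1, the cytosolic enzyme that makes glycerol 3-phosphate from dihydroxyacetone phosphate, was the highest of the 9 genes in BAT (chromosome 15, mm9, 99547946 to 99555556, plus strand, 8 merged exons). Its RPKM was 307 to 431 in iWAT (median 406), 169 to 344 in eWAT (median 274) and 1264 to 1824 in BAT (median 1479). The BAT libraries stood clear of both white depots, and the white depots overlapped each other. RPKM ranges did not overlap for 47.2% of 18383 genes between iWAT and BAT and for 61.9% between eWAT and BAT. Gpd1 was lower in iWAT than in BAT by a log2 fold change of -2.25 (SE 0.14, edgeR adjusted p = 5.35e-09). In eWAT it was lower than in BAT by -3.23 (SE 0.18, edgeR adjusted p = 1.32e-11), or -2.92 for reads without row lengths. It was also lower in eWAT than in iWAT by -0.95 (SE 0.17, edgeR adjusted p = 0.000133), or -0.62 without row lengths (edgeR adjusted p = 0.00851). Antisense rows overlap Gpd1, and strand was not stated to have been used in counting. The antisense row ENSMUSG00000089671, which shares 384 of 2961 exonic bases with Gpd1, had 12.8% as many reads as Gpd1 in iWAT and 13.2% as many in BAT, and without strand reads of the overlap cannot be told apart.

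Gpd2, the mitochondrial enzyme that oxidises glycerol 3-phosphate and passes its electrons to the respiratory chain, differed most of all (chromosome 2, mm9, 57090046 to 57223130, plus strand, 23 merged exons). Its RPKM was 5.16 to 10.4 in iWAT (median 7.26), 4.72 to 12.7 in eWAT (median 9.81) and 76.6 to 103.7 in BAT (median 97.8). No white adipocyte library came near the BAT range, where 47.2% (iWAT) and 61.9% (eWAT) of 18383 genes had no overlap with BAT. Mean RPKM was 12.8-fold lower in iWAT than in BAT, with a log2 fold change of -3.94 (SE 0.20, edgeR adjusted p = 7.57e-10), and 245 of the 19733 genes tested fell further. The difference between eWAT and BAT was -4.05 (SE 0.25, edgeR adjusted p = 3.98e-11), or -4.50 without row lengths. Between eWAT and iWAT it was -0.08 (95% interval -0.54 to 0.38, edgeR adjusted p = 0.779), and -0.51 for reads without row lengths (edgeR adjusted p = 0.0929), on a merged row 1.80 times as long.

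Pcx, which makes oxaloacetate from pyruvate in mitochondria, ran opposite to these 2 dehydrogenases (chromosome 19, mm9, 4510472 to 4622044, plus strand). Its RPKM was 122 to 198 in iWAT (median 154), 94.8 to 227 in eWAT (median 199) and 65.9 to 100.1 in BAT (median 79.8). All iWAT libraries were above all BAT libraries, a lack of overlap found for 47.2% of 18383 genes in one direction or the other. In eWAT only the library of mouse 15 reached into the BAT range. Pcx was higher in iWAT than in BAT by a log2 fold change of 0.72 (SE 0.14, edgeR adjusted p = 0.000468). For eWAT against BAT the value was 0.44 (SE 0.19, edgeR adjusted p = 0.0417), a call that was lost with the mouse as a block (0.51, edgeR adjusted p = 0.0509), with DESeq2 (0.40, adjusted p = 0.0628) and without any one of 7 libraries, those of mouse 7, mouse 11, mouse 13 and mouse 14 in eWAT and of mouse 11, mouse 12 and mouse 13 in BAT (edgeR adjusted p up to 0.105). It held without row lengths (0.48, edgeR adjusted p = 0.0254), and without TMM scaling the value was 1.17 (edgeR adjusted p = 8.14e-06). Between eWAT and iWAT the difference was -0.25 (edgeR adjusted p = 0.271), or -0.19 without row lengths (edgeR adjusted p = 0.466).

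Ratios of genes within a library do not depend on the scaling between libraries. The RPKM of Pck1 was 386 to 596 times that of Gyk in iWAT (median 434), 57.6 to 393 times in eWAT (median 201) and 33.6 to 71.8 times in BAT (median 49.9). The log2 ratio of Gyk to Pck1 was thus lower in iWAT than in BAT by -3.09 (exact permutation test, two-sided, p = 0.00216, adjusted over 9 tests p = 0.00487), and in eWAT than in BAT by -1.92 (exact p = 0.00649, adjusted p = 0.00835). In eWAT it was higher than in iWAT by 1.17 (exact p = 0.00649, adjusted p = 0.00835). Ratios of reads alone gave -2.34 (exact p = 0.00216) for eWAT against BAT and 0.85 (exact p = 0.0346) against iWAT. The ratio of Pck1 to Pck2 had a median of 749 in BAT, 594 in iWAT and 178 in eWAT. It was lower in eWAT than in BAT by -2.19 and than in iWAT by -1.80 on the log2 scale (exact p = 0.00216 each, adjusted p = 0.00487), or -1.69 (exact p = 0.00216) and -1.26 (exact p = 0.00433) for reads alone, whereas the difference between iWAT and BAT did not pass (-0.39, exact p = 0.0758). The ratio of Gpd1 to Gpd2 fell in the order iWAT (median 56.8, 29.6 to 78.9), eWAT (median 29.5, 17.6 to 47.6) and BAT (median 16.3, 14.6 to 19.6). Its log2 difference was 1.71 between iWAT and BAT (exact p = 0.00216, adjusted p = 0.00487) and 0.84 between eWAT and BAT (exact p = 0.00649, adjusted p = 0.00835; 1.62 for reads alone, exact p = 0.00216). That between eWAT and iWAT was -0.87 (exact p = 0.0173, adjusted p = 0.0195) and was lost for reads alone (-0.11, exact p = 0.721). With 6 libraries a group the exact test cannot go below 0.00216, and over the 4 or 5 mice shared by a pair of depots it cannot go below 0.125 or 0.0625.

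**Figure D4:**
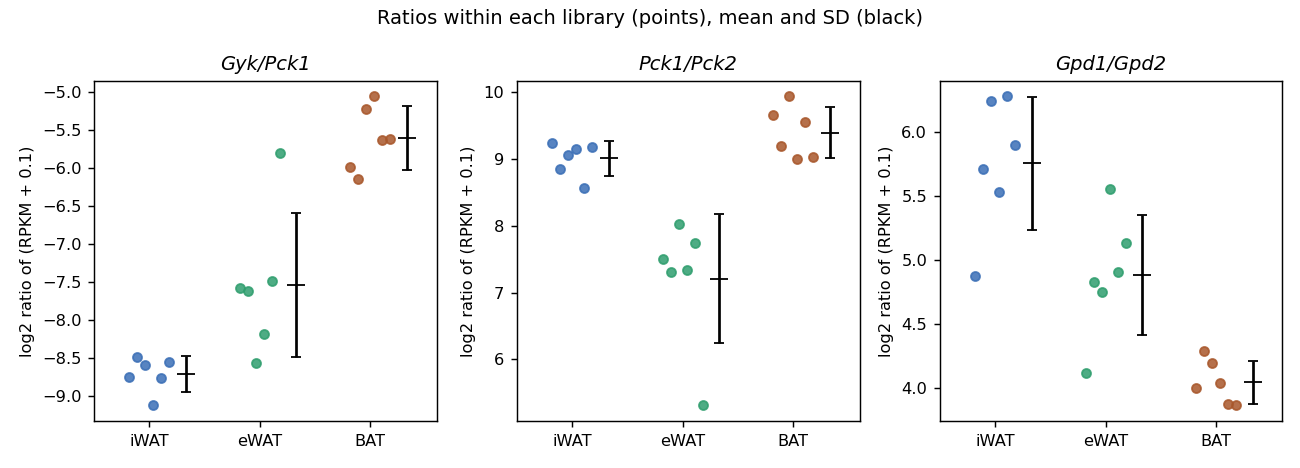
Log2 ratios of Gyk to Pck1, Pck1 to Pck2 and Gpd1 to Gpd2 (RPKM + 0.1) in each library, with the mean and SD of 6 libraries in black. The ratio of Gyk to Pck1 was highest in BAT, and the eWAT library of mouse 15 lay apart from the other eWAT libraries in the Gyk to Pck1 and Pck1 to Pck2 ratios.

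The eWAT library of mouse 15 was the lowest of its depot for 5 of the 8 tested genes (Aqp7, Pck1, Gpd1, Gpd2 and Pcx) and the highest for 2 (Gyk and Pck2). Its Pck1 RPKM was 199, against 489 to 928 in the other 5 eWAT libraries, a factor of 3.18 below their mean. Its Gpd2, Pcx, Gpd1 and Aqp7 levels were below the mean of the others by a factor of 2.15, 2.12, 1.72 and 1.69. The same library had the highest macrophage sum (1842), with all 6 markers detected, and the lowest adipocyte sum (2903) of the depot. The part of macrophage RNA in these values was not tested. Leaving out this library and that of mouse 14, which had the highest epididymis (76.2) and epithelium (6.01) sums of the depot, gave the same number of calls, 7 of 8 against BAT and 4 of 8 against iWAT, with the Pck1 difference from BAT at -0.72 (edgeR adjusted p = 0.00252). Of all 18383 genes tested, 71.8% then passed against BAT and 49.9% against iWAT.

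The neighbouring steps were described with gene lists, whose counts for iWAT against BAT are set beside the 34.0% of all genes higher and 33.6% lower in iWAT. All 5 genes of glycerol release by lipolysis were higher in iWAT, with a median log2 fold change of 0.67, among them Pnpla2, the first triglyceride lipase, at a mean RPKM of 531 ± 27.0 against 428 ± 37.5 (SD, n = 6 each) and a log2 fold change of 0.27 (SE 0.08, edgeR adjusted p = 0.00813). The monoglyceride lipase gene Mgll (0.92, edgeR adjusted p = 2.12e-05) and the droplet coat gene Plin1 (0.91, edgeR adjusted p = 7.2e-07) rose most. Plin1 is also one of the 5 adipocyte markers. This did not extend to eWAT, where 2 of the 5 genes were higher than in BAT, 1 was lower and 2 were not called. Of all genes, 39.9% were higher and 34.0% lower in eWAT. The lower gene was Pnpla2 (-0.65, edgeR adjusted p = 0.000718).

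Genes that esterify glycerol 3-phosphate were mixed, with 2 higher, 4 lower and 1 not called of 7, beside 34.0% higher and 33.6% lower of all genes. Agpat9, the older symbol of the acyltransferase Gpat3, was higher in iWAT by a log2 fold change of 3.07 (SE 0.23, edgeR adjusted p = 4.78e-08), at a mean RPKM of 24.9 ± 4.44 against 2.45 ± 0.941 (SD, n = 6 each). Agpat2, which adds the next fatty acid, was lower by -1.59 (SE 0.15, edgeR adjusted p = 4.22e-07). Dgat2, which completes the triglyceride and had the highest level of the list, was higher by 0.55 (SE 0.14, edgeR adjusted p = 0.00307).

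Of 12 genes of pyruvate and malate supply, 9 were lower in iWAT, 1 was higher and 2 were not called, with a median log2 fold change of -1.36, beside 33.6% lower, 34.0% higher and a median of 0.01 over all genes. The exception was the dicarboxylate carrier Slc25a10, at a mean RPKM of 58.2 ± 3.31 in iWAT and 2.85 ± 1.22 in BAT (SD, n = 6 each) and a log2 fold change of 4.08 (SE 0.25, edgeR adjusted p = 5.05e-09). The pyruvate dehydrogenase kinase Pdk4 was lower by -3.15 (SE 0.29, edgeR adjusted p = 2.89e-07), and the mitochondrial pyruvate carrier Brp44l, now Mpc1, which had the highest level, by -2.02 (SE 0.12, edgeR adjusted p = 4.37e-09).

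Of 10 transcriptional regulators, 4 were higher in iWAT, 3 lower and 3 not called, a share of calls near the 67.6% of all genes. Ppargc1a, the coactivator of mitochondrial genes, was lower by -2.68 (SE 0.35, edgeR adjusted p = 1.04e-05) and Esrra, a nuclear receptor it works with, by -2.30 (SE 0.09, edgeR adjusted p = 7.49e-11). Cebpa, an adipocyte transcription factor with the highest level of the list, was higher by 0.59 (SE 0.13, edgeR adjusted p = 0.00123). Creb1, which binds cyclic AMP response elements, gave 0.02 (edgeR adjusted p = 0.885). Of 9 other aquaporins 1 had enough reads in iWAT and BAT, Aqp11, an intracellular channel, at a mean RPKM of 0.38 ± 0.045 and 0.227 ± 0.0215 (SD, n = 6 each) and a log2 fold change of 0.48 (SE 0.13, edgeR adjusted p = 0.00447). Aqp9, the glycerol channel of liver, had enough reads through its eWAT libraries alone, so that its levels are given without a test. Its mean RPKM was 0.468 ± 0.50 in eWAT, a spread as wide as the mean, 0.0194 ± 0.0122 in iWAT and 0.0142 ± 0.0155 in BAT (SD, n = 6 each), and eWAT was also the depot with epididymis markers (up to 76.2) and the highest macrophage sum (1842), whose part in this was not tested.

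**Figure D5:**
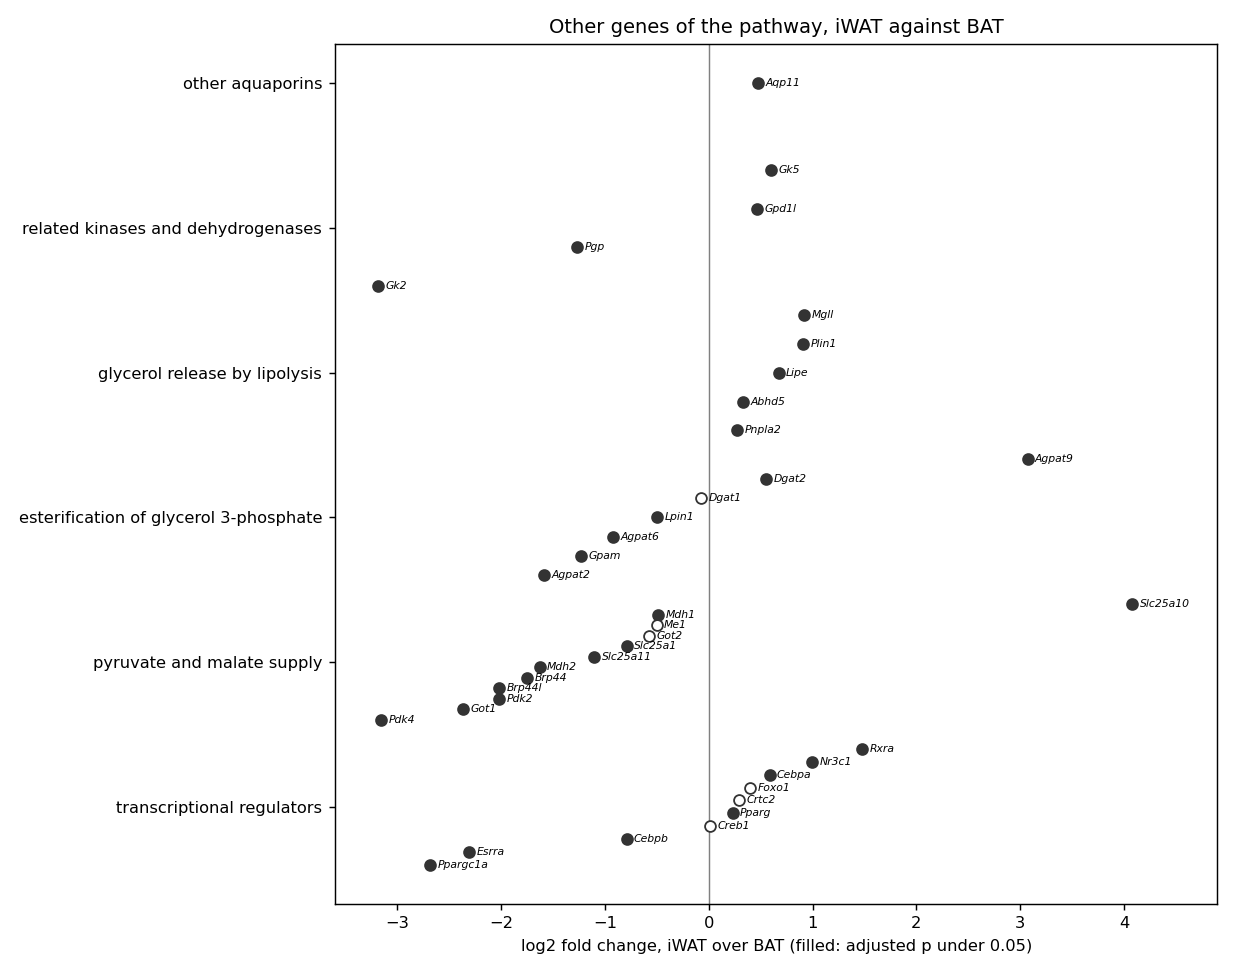
Log2 fold change of the other genes of the pathway between iWAT and BAT, one row per list, with filled points for an edgeR adjusted p under 0.05. Gk2 is drawn too, although it may have had enough reads through its BAT libraries alone. All 5 lipolysis genes lie to the right of 0, and 11 of the 12 genes of pyruvate and malate supply lie to the left, with Slc25a10 as the exception.

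Within the 12 iWAT and BAT libraries, after removing each depot's mean, the genes whose log2 RPKM followed Aqp7 most closely among 4367 genes were Gstm2 (Pearson's r = 0.95), Anapc2 (r = 0.95) and Kif13b (r = 0.92). For Pck1 they were Gm12538 (r = 0.85), Lpl (r = 0.85) and 1500003O03Rik (r = 0.83), and for Gyk they were Bzw1 (r = 0.93), Gadd45g (r = 0.92) and Zdhhc5 (r = 0.91). Lpl encodes lipoprotein lipase. The depots did not contribute alike. In the order named, r for Aqp7 was 0.89, 0.97 and 0.72 within iWAT and 0.98, 0.97 and 0.97 within BAT. For Pck1 it was 0.92, 0.88 and 0.93 within iWAT and 0.77, 0.99 and 0.70 within BAT. For Gyk it was 0.63, 0.60 and 0.84 within iWAT and 0.95, 0.94 and 0.92 within BAT. These values describe the libraries, share each library's depth and composition, and were picked as the highest of all genes examined.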

How the data were processed

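The libraries had been prepared with NEBNext Ultra and run on Illumina HiSeq, and the authors used the Genomatix Genome Analyzer with mm9. The submitters' processing notes also list cutadapt 1.16 and HISAT2 2.1.0. The annotation and the use of strand in counting are not given in the sources used here. The authors deposited raw read counts for each row and an RPKM, which equals that count divided by row length and the library's total. Reads were not collapsed by molecular identifiers.

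The 9 genes and all gene lists were chosen with earlier results of these data known. Rows were the merged gene (53445 rows; iWAT, BAT) and the transcript with the most reads (189660 rows; eWAT), joined by symbol. Depots were compared with edgeR 4.0.16 in R 4.3.3 (glmQLFit, glmQLFTest) on symbols with at least 10 reads in at least 6 libraries. TMM was used, with row length as an offset where eWAT entered, no block and a Benjamini-Hochberg adjusted p under 0.05. The iWAT and BAT libraries were fitted alone, and all 18 for eWAT. The code was tested on simulated counts. Ratios of RPKM + 0.1 were tested by exact permutation over libraries (scipy 1.17.1). The text names every member, and of each list the gene with the highest mean RPKM and the 2 largest changes between iWAT and BAT, as well as a few others chosen after their values were seen (Creb1 among them). Of the motifs, AGGTCA was added after the data were seen. Motif shares and sequences come from the mm9 genome given with the data, in which 94.8% of 54051 Ensembl transcripts had the position of the deposited rows.

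The groups share 4 or 5 mouse numbers, and the labels do not say that a number marks 1 animal. Libraries with the same number did not deviate together (mean r 0.03, -0.04 and -0.10 for iWAT and BAT, eWAT and BAT, eWAT and iWAT), and the fit with the mouse as a block is an alternative. No label says more of how the 6 samples of a group were kept apart, and p-values measure the spread between them. Other alternatives were DESeq2 1.42.0, limma 3.58.1 on log2 RPKM, library size without TMM, other filters and rows, a test against 1.5-fold and leaving out each library.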

Additional observations from a re-analysis of the deposited data

Results flagged for a closer look

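Of 33 measures examined for a library far from the other 5 of its depot, 2 met Dixon's criterion, where about 1.65 would by chance (1 in 20). The Aqp1 RPKM in the iWAT library of mouse 14 was 270.3, against 47.0 to 108 in the others. The log2 ratio of Pck1 to Pck2 in the eWAT library of mouse 15 was 5.31, against 7.31 to 8.02 in the others.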

How the results depend on the processing

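The calls of Gpd1, Gpd2 and Gyk against BAT held in every alternative that tested these genes, for iWAT and for eWAT. The number of genes called stayed within a factor of 1.5 except against a 1.5-fold threshold (3 of 8 between iWAT and BAT, 2 of 8 between eWAT and iWAT), with eWAT transcripts summed, which counts reads several times (7 of 8 between eWAT and iWAT), and with rows of identical length alone, which leave Aqp1 as the 1 gene tested (0 called in either eWAT comparison). Leaving out single libraries gave 5 to 6, 6 to 7 and 3 to 5 calls, beside 65% to 69.1%, 72.1% to 73.8% and 48.9% to 53.3% of all genes. Without TMM the number between iWAT and BAT stayed at 5, beside 70.1% of all genes, with Pck2 in place of Aqp7. Limma on log2 RPKM, which has no TMM either, also lost Aqp7 and, in eWAT, Pck1. The signs of Pck1 between iWAT and BAT and of Gpd2 and Pcx between eWAT and iWAT, none of them called, turned without TMM.

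With the mouse as a block, pairs of the same number gave log2 ratio differences that cannot pass: for Gyk to Pck1 -3.12 (iWAT, BAT), -2.47 (eWAT, BAT) and 1.21 (eWAT, iWAT), exact p = 0.125 each; for Pck1 to Pck2 -1.75 (exact p = 0.125) and -1.81 (exact p = 0.0625) in eWAT; for Gpd1 to Gpd2 1.57 (exact p = 0.125), 0.72 (exact p = 0.25) and -0.76 (exact p = 0.125). In the edgeR fits the block changed the calls of Pcx (eWAT, BAT), Pck1 and Gyk (eWAT, iWAT) alone. The Gpd1 to Gpd2 difference between eWAT and iWAT was lost for reads alone (-0.11), the cause being row length by construction. That of Pck1 to Pck2 between iWAT and BAT ranged from -0.47 to -0.28 without single libraries and passed without the BAT library of mouse 11 (-0.47, exact p = 0.0476). Aqp3 is limited by depth, and lengths of merged rows limit the eWAT values.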
